A study of Drosophila melanogaster with 6 samples.

Results

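H3K27acS28ph is a doubly modified tail of histone H3, in which lysine 27 carries an acetyl group and the serine next to it a phosphate. Its peaks were set beside those of plain H3K27ac in Kc167, a Drosophila line from female late embryos, to see where the acetylated chromatin also carried the phosphate. All peaks of the 2 lists on the 6 main arms (2L, 2R, 3L, 3R, 4 and X) were used, that is 5222 of 5303 H3K27ac peaks and 3223 of 5634 H3K27acS28ph peaks, and a peak counted as shared when at least 1 bp of it overlapped a peak of the other list. The other 4 libraries of the series, for H3K4me3, H3K4me1, the kinase JIL-1 and H3K9acS10ph, served to describe the groups. The cells were grown in serum-free CCM3 medium and fixed with formaldehyde, and each of the 6 antibodies has 1 library, so no test between libraries was possible, and the intervals given below (95%) cover counting error alone and treat peaks as independent. Differences between groups were called when such an interval excluded 0. The read depth behind the lists is unknown and the specificity of the antibodies was not analysed here.

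Acetylation of H3K27 marks active promoters and enhancers and occupies the residue that Polycomb proteins methylate in silent chromatin. The neighbouring serine can be phosphorylated, and the same arrangement of a lysine followed by a serine occurs at H3K9 and S10. JIL-1 is the main kinase that phosphorylates H3 on chromosomes outside mitosis in flies. H3K4me3 marks active promoters, and H3K4me1 marks enhancers and the flanks of promoters.

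H3K27acS28ph peaks lay mostly within H3K27ac, while most H3K27ac peaks had none. Of the H3K27acS28ph arm peaks, 2646 of 3223 (82.1%, 95% Wilson interval 80.7 to 83.4) overlapped H3K27ac, and 577 did not. Of the H3K27ac arm peaks, 1968 of 5222 (37.7%, 36.4 to 39) overlapped H3K27acS28ph, and 3254 did not. With the H3K27ac list reduced to its 3223 highest-scoring peaks the second share was 56.9%. With 1000 bp around every midpoint the first share was 45%, and with all scaffolds it was 47.6%. Shared H3K27ac peaks mostly held a single H3K27acS28ph peak (1469 peaks), and 499 held 2 or more. Only 31 H3K27acS28ph peaks bridged 2 H3K27ac peaks.

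Peaks close to the limit were few. The smallest overlaps were 2, 19 and 20 bp, and the H3K27acS28ph-only peaks nearest to H3K27ac lay 4, 26 and 35 bp away. The 2 bp overlap joined an H3K27acS28ph peak on 3L from 7905129 to 7907132 with an H3K27ac peak from 7907131 to 7909829. The 4 bp gap parted an H3K27acS28ph peak on 3L from 4681987 to 4683353 from an H3K27ac peak that began at 4683358. Overlaps under 100 bp occurred in 13 of 2677 pairs, and gaps under 100 bp in 18 of the 577 unshared H3K27acS28ph peaks.

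Shared H3K27ac peaks were wider than those without H3K27acS28ph. Their median width was 3839 bp (3699 to 4004, with quartiles of 2518 and 6573 bp), against 1972 bp (1916 to 2019, quartiles 1359 and 3041 bp), a ratio of 1.95. The difference of medians was 1866 bp, and 1008 bp when H3K27ac was reduced to its 3223 highest-scoring peaks. A wide peak has more bases on which to meet another, and the share of H3K27ac peaks with H3K27acS28ph climbed from 10.1% (8.58 to 11.9) in the narrowest of 4 equal width classes, through 27.9% and 43.1%, to 69.7% (67.1 to 72.1) in the widest. Counted per length, H3K27acS28ph midpoints were sparse in the narrowest class, at 71.2 per Mb of H3K27ac peak. They numbered 132, 144 and 151 per Mb in the next 3 classes. From a width of 1592 bp upwards the density changed less than the share of peaks with at least 1 H3K27acS28ph peak.

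**Figure D1:**
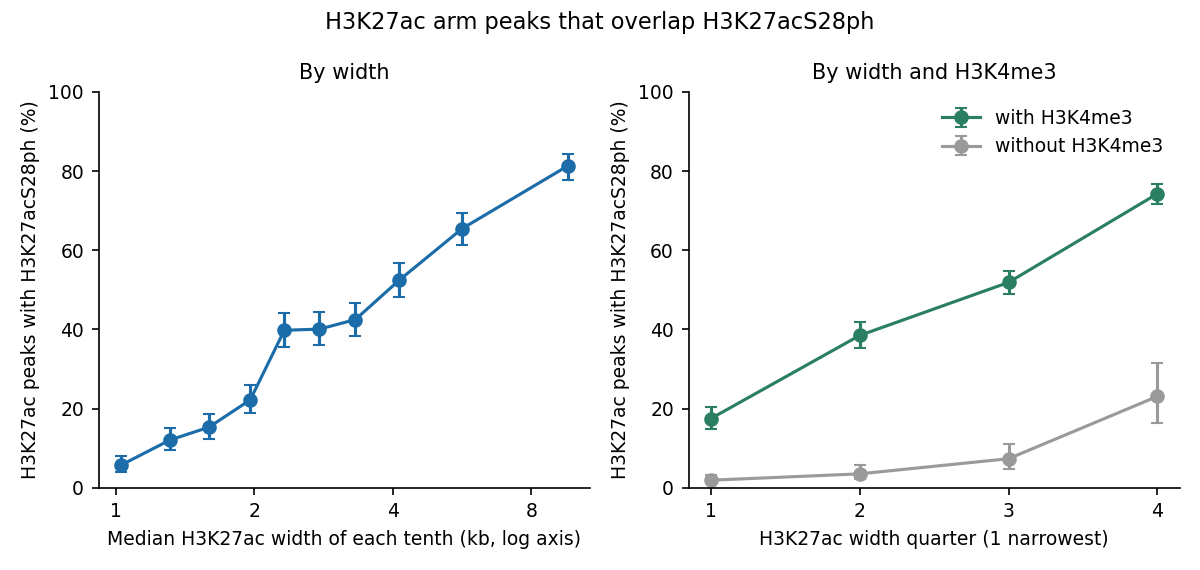
Left, the share of H3K27ac arm peaks that overlap H3K27acS28ph (%) against the median H3K27ac width of each of 10 equal classes of width (kb, log axis); right, the same share in 4 equal classes of width for H3K27ac peaks with and without H3K4me3. Bars are 95% Wilson intervals; the share climbs from 5.74% to 81.3% over the 10 classes, and in each of the 4 it is higher with H3K4me3.

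The caller's score, read only as a rank inside its own list, also separated the groups. Among shared H3K27ac peaks 91.1% (89.7 to 92.2) stood at 3100 or above, a value at which the H3K27ac scores pile up, compared with 38.3% (36.6 to 39.9) of the H3K27ac-only peaks. Score and width went together, and the part of each in these differences was not tested. From the narrowest to the widest of the 4 width classes, 8.72%, 45.2%, 81.4% and 97.4% of H3K27ac peaks stood at 3100 or above. Seen from the score, 59% of H3K27ac peaks at 3100 or above had H3K27acS28ph (57.2 to 60.7), and 8.05% of those below it (6.99 to 9.27). The median percentile of shared H3K27ac peaks within the list was 70.6, which is the rank of the tied peaks at 3100, and that of H3K27ac-only peaks was 32.7. In the upper 50% of the list, and with the list reduced to 3223 peaks, both medians fell on tied scores and the difference was 0. The difference in median H3K27ac width in these settings was 1378 and 1008 bp. H3K27acS28ph scores had no such pile-up on the arms (6 peaks at 3100 or above). Shared H3K27acS28ph peaks had a median percentile of 53.4 (51.5 to 55.2) and H3K27acS28ph-only peaks one of 30.9 (27.3 to 35.3). This difference of 22.5 points was 9.03 in the upper 50% of the lists, 6.38 with windows of 1000 bp and 1.96, no longer called, over all scaffolds.

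Within the H3K27acS28ph list, the share with H3K27ac followed the score up to the middle of the list and then levelled off. It was 63.2% (57.8 to 68.2) in the lowest 10% of scores and 87% (82.9 to 90.2) in the fifth of the 10 score classes, and it stayed between 85.8% and 89.4% in the 5 classes above. In the highest 10% it was 88.2% (84.3 to 91.3). The unshared peaks in that top class were wide, with a median of 8004 bp, against 984 bp for the unshared peaks of the lowest class.

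The H3K27acS28ph peak was the smaller feature inside the H3K27ac peak. Shared H3K27acS28ph peaks had a median width of 1472 bp (1442 to 1505), so the median shared H3K27ac peak was 2.61 times as wide. In 2276 of 2677 pairs (85%, 83.6 to 86.3) the H3K27acS28ph peak lay wholly inside, in 391 it crossed 1 edge and in 10 it enclosed the H3K27ac peak. Its midpoint was inside in 97% of pairs. H3K27acS28ph covered a median of 46.8% of the shared H3K27ac peak (45.4 to 48.2, quartiles 32.4 and 65). Where an H3K27ac peak held exactly 1 H3K27acS28ph peak, the widths were only loosely related (Spearman 0.28 over 1469 pairs of peaks called on the same cell line, given as a description).

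Contained H3K27acS28ph peaks were spread nearly evenly along the H3K27ac peak. Position was measured as the start of the H3K27acS28ph peak along the room that kept it inside, so that even placement gives a median distance from the centre of 50% of the room to either side. The observed median was 53.9% (51.6 to 56), and it was 49.5% where the H3K27ac peak held exactly 1 H3K27acS28ph peak. The outer 10% at both ends together held 23.2% of the contained peaks (21.6 to 25), against 20% under even placement. The central 33.3% held 31.1% (29.2 to 33). Even placement is that of a single peak, whereas 1203 H3K27acS28ph peaks overlapped H3K27ac peaks that held 2 or more. The ends were not counted apart for H3K27ac peaks with exactly 1. In the widest class of H3K27ac peaks, with 1425 of the 2276 contained pairs, the ends held 25.3% (23.1 to 27.6). In the narrowest they held 17.4% (10.2 to 28, 69 pairs). The central 33.3% held 29.8% (27.4 to 32.2) in the widest class and 44.9% (33.8 to 56.6) in the narrowest. In contained pairs the median stretch of H3K27ac beyond the H3K27acS28ph peak was 630 bp on the nearer side and 2878 bp on the farther side.

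**Figure D2:**
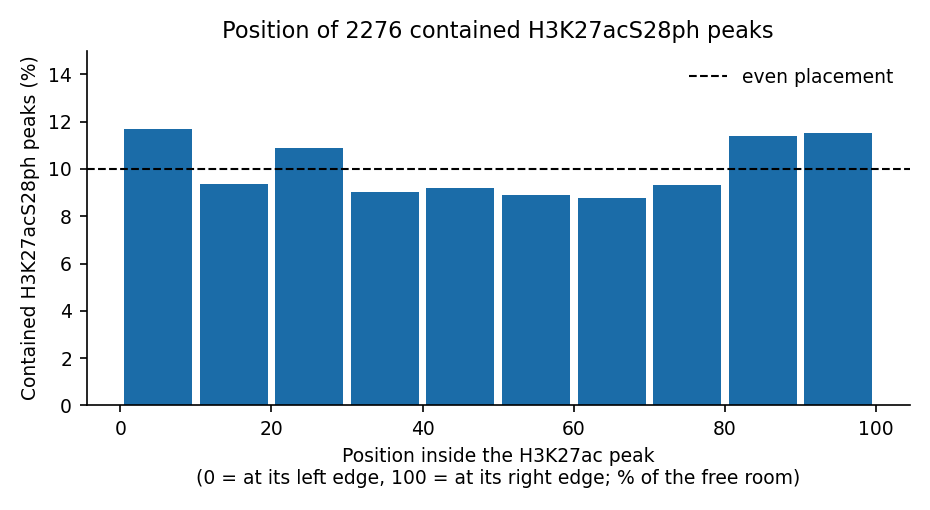
Position of the contained H3K27acS28ph peaks along the free room of the H3K27ac peak (%, in 10 bins from its left to its right edge on the scaffold) against the share of the 2276 peaks in each bin (%). The bins hold between 8.79% and 11.7%, close to the 10% of even placement (dashed line), with the outermost bins slightly fuller.

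The other marks set the 3 groups apart. H3K4me3, found at 73.3% of all H3K27ac arm peaks, was present at 96.3% of the shared ones (1896 of 1968, 95.4 to 97.1) and at 59.4% of H3K27ac-only peaks (1932 of 3254, 57.7 to 61). That difference of 37 points (35.1 to 38.8) was the largest of the 4 marks. H3K9acS10ph, the other phosphoacetylated form, was present at 79.4% of all H3K27ac peaks, at 96.3% of the shared and at 69.1% of the H3K27ac-only peaks, a difference of 27.2 points (25.4 to 29). JIL-1 was present at 81.7% of all, at 94% of the shared and at 74.2% of the unshared, a difference of 19.8 points (17.9 to 21.6). H3K4me1 was nearly as common without H3K27acS28ph as with it, at 93.9% of all, 97.1% of the shared and 91.9% of the unshared peaks, a difference of 5.22 points (3.99 to 6.4). H3K27ac peaks with H3K4me1 and without H3K4me3, a layout known from enhancers, made up 2.79% of the shared peaks (55 peaks) and 35.6% of the H3K27ac-only peaks (1160 peaks).

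**Figure D3:**
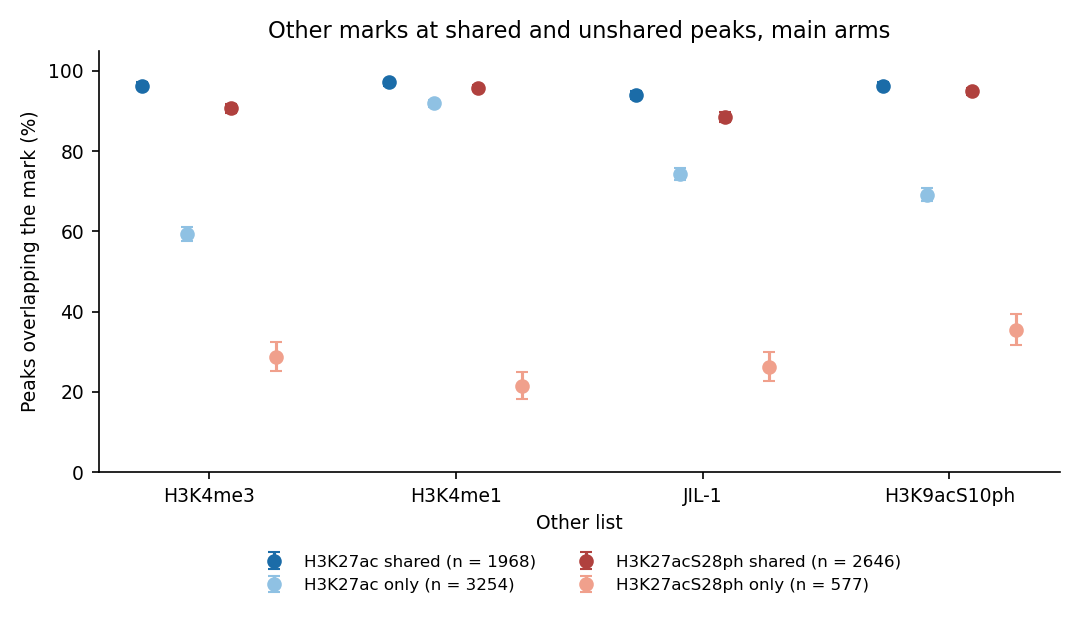
Share of peaks (%) that overlap each of the 4 other lists, for shared and unshared H3K27ac peaks and for shared and unshared H3K27acS28ph peaks on the main arms; bars are 95% Wilson intervals. Shared peaks of both lists stand at 88.5% or above for every mark, H3K27ac-only peaks between 59.4% and 91.9%, and H3K27acS28ph-only peaks between 21.5% and 35.5%.

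The differences for H3K4me3, H3K9acS10ph and JIL-1 were also seen within each of the 4 classes of H3K27ac width. Shared and unshared peaks were not matched for width inside a class, and the widest class ran from 4136 to 55816 bp. Over the 4 width classes the H3K4me3 difference ran from 42.8 points in the narrowest to 19.8 points in the widest, that of H3K9acS10ph from 35.2 to 8.38 points, and that of JIL-1 was 19.4, 11.4, 12.3 and 3.36 points, all with intervals above 0. The H3K4me1 difference lay between -0.917 and 4.46 points, and its interval included 0 in each class. Among H3K27ac peaks at 3100 or above, the differences were 18.8 points for H3K4me3, 8.41 for H3K9acS10ph, 6.65 for JIL-1 and 0.659 (-0.464 to 1.89) for H3K4me1. With H3K27ac reduced to its 3223 highest-scoring peaks they were 19.9, 9.53, 7.8 and 0.788 points (-0.316 to 1.98), and in the upper 50% of all lists that of H3K4me3 was 24.4 points. With windows of 1000 bp the H3K4me1 difference changed sign, to -1.04 points (-4.08 to 1.98). On each of the 5 large arms the H3K4me3 difference lay between 34.7 and 39 points.

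Combinations of marks gave a finer division. H3K27ac peaks with all 4 other marks had H3K27acS28ph in 54.6% of cases (1741 of 3189, 52.9 to 56.3). Those with H3K4me1, JIL-1 and H3K9acS10ph but no H3K4me3 had it in 8.17% (34 of 416, 5.91 to 11.2). Those with H3K4me3, H3K4me1 and JIL-1 but no H3K9acS10ph had it in 18.4% (38 of 206, 13.7 to 24.3), and those with H3K4me3, H3K4me1 and H3K9acS10ph but no JIL-1 in 29.7% (70 of 236, 24.2 to 35.8). Those with H3K4me3, JIL-1 and H3K9acS10ph but no H3K4me1 had it in 41.3% (26 of 63, 30 to 53.6). H3K4me1 alone gave 1.27% (4 of 315, 0.495 to 3.22). The median widths of these classes were 3137, 2414, 2119, 1853, 1885 and 1398 bp. They differed in width too, and the part of width in these shares was not tested. The share did not simply follow the number of marks. Peaks with H3K4me3 and H3K9acS10ph only had H3K27acS28ph at 9 of 19 (47.4%, 27.3 to 68.3). Peaks with none of the 4 marks had it at 12 of 101 (11.9%, 6.93 to 19.6), against 9 of 402 (2.24%, 1.18 to 4.2) with exactly 1 mark.

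The share with H3K27acS28ph varied with H3K4me3 and with width. In the widest class 74.3% of H3K27ac peaks with H3K4me3 had H3K27acS28ph (71.7 to 76.7) and 23.1% of those without it (16.4 to 31.5, 27 of 117). In the narrowest class the shares were 17.5% (14.9 to 20.5) and 1.93% (1.11 to 3.34). H3K9acS10ph gave a similar split in the 3 narrower classes, where its absence went with shares of 2.8% to 6.72%. In the widest class 34 of the 82 H3K27ac peaks without H3K9acS10ph carried H3K27acS28ph (41.5%, 31.4 to 52.3), as did 20 of the 42 without JIL-1 (47.6%, 33.4 to 62.3) and 6 of the 13 without H3K4me1 (46.2%, 23.2 to 70.9). The 34 had a median width of 9260 bp, and the 48 without either phosphoacetylated mark one of 5823 bp. H3K4me3 was found at 91.2% of the 34, at 66.7% of the 48 and at 97% of all 910 shared peaks of that width class. JIL-1 was found at 85.3%, 89.6% and 97.8%.

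Most H3K4me3 peaks inside shared H3K27ac peaks overlapped H3K27acS28ph, which the choice of these peaks favours. Of the 3534 H3K4me3 peaks that overlapped a shared H3K27ac peak, 2545 overlapped H3K27acS28ph (72%, 70.5 to 73.5). Where a shared H3K27ac peak held 2 or more H3K4me3 peaks the share was 64% (1697 of 2653, 62.1 to 65.8). Both shares are raised by the choice of H3K27ac peaks that hold H3K27acS28ph, over a median of 46.8% of their width. The share among all H3K4me3 arm peaks is not given here. The mean number of H3K4me3 peaks was 0.764 in H3K27ac peaks without H3K27acS28ph, 1.47 in those with 1, 2.49 in those with 2 and 3.92 in those with 3 or more, while the median width went from 1972 through 3187 and 6746 to 11674 bp. Both numbers grow with width. H3K4me3 and H3K27acS28ph peaks were equal in number in 1024 of the 1968 shared H3K27ac peaks, H3K4me3 peaks were more numerous in 772, and H3K27acS28ph peaks in 172.

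Inside one and the same H3K27ac peak, the marks were not spread evenly. Under the H3K27acS28ph stretches of 1958 shared H3K27ac peaks (4.33 Mb), H3K4me3 peaks covered 81.4% of the bases, against 47.8% in the rest of the same peaks (6 Mb). H3K9acS10ph covered 92.1% and 70%, and JIL-1 71.6% and 49%. H3K4me1 went the other way, with 73.8% under H3K27acS28ph and 83.8% in the rest. Peak by peak, H3K4me3 coverage was higher under H3K27acS28ph in 1536 of 1958 and lower in 236, while H3K4me1 coverage was lower in 1138 and higher in 651. H3K9acS10ph coverage was lower under H3K27acS28ph in only 54 peaks. The directions held on each of the 6 arms, chromosome 4 included, where the 12 shared peaks gave 51.8% and 24.9% for H3K4me3 and 17.6% and 28.6% for H3K4me1.

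The contrast was smaller against chromatin at the same distance from an edge. When each H3K27acS28ph stretch was compared with its mirror image about the midpoint of the H3K27ac peak, which lies as far from an edge, H3K4me3 covered 67.6% of the mirror image, H3K9acS10ph 82.7%, JIL-1 61.7% and H3K4me1 77.5%. The differences were then 13.8 points for H3K4me3 in place of 33.6, 9.41 for H3K9acS10ph in place of 22.1, 9.9 for JIL-1 in place of 22.6 and -3.7 for H3K4me1 in place of -10. A stretch near the midpoint overlaps its own mirror image, which lowers these values. Of the peaks in which the 2 stretches differed, H3K4me3 covered more under H3K27acS28ph in 76.9% (74.7 to 79), H3K9acS10ph in 88.5% (86.2 to 90.4), JIL-1 in 67.5% (65.2 to 69.8) and H3K4me1 in 38.9% (36.4 to 41.5).

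**Figure D4:**
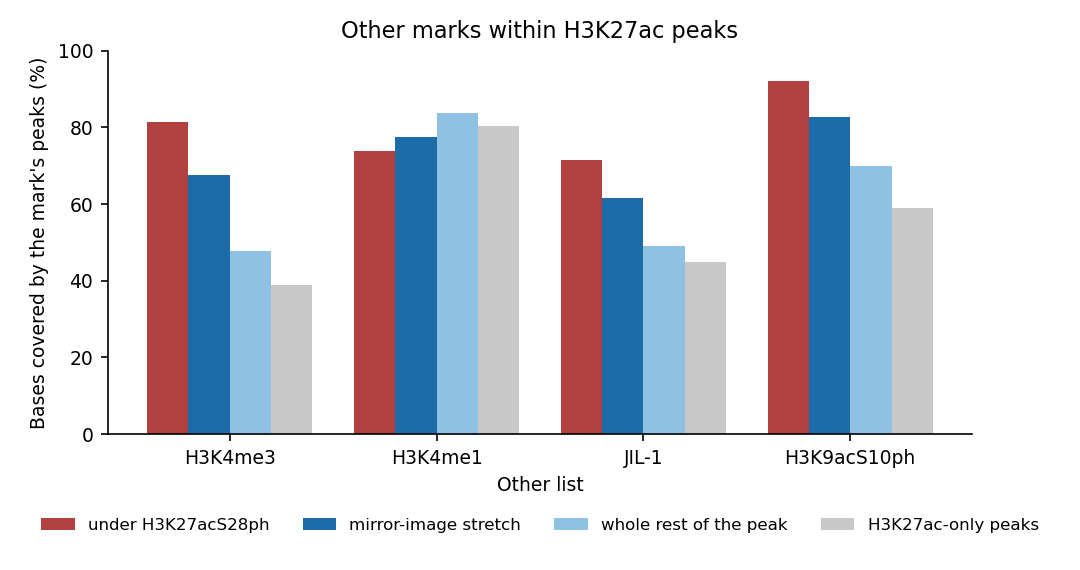
Share of bases (%) covered by the peaks of each other mark under H3K27acS28ph, in the mirror-image stretch and in the whole rest of the same 1958 shared H3K27ac peaks, and in H3K27ac-only peaks. H3K4me3, JIL-1 and H3K9acS10ph are highest under H3K27acS28ph (81.4%, 71.6% and 92.1%) and H3K4me1 is lowest there (73.8%).

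The side of the H3K27ac peak gave the same picture. Where an H3K27ac peak held exactly 1 H3K27acS28ph and 1 H3K4me3 peak, both midpoints lay on the same side of its midpoint in 590 of 854 cases (69.1%, 65.9 to 72.1). Indifference to side gives 50%. The share was 64.4% for JIL-1 (60.8 to 67.7, 735 peaks), 63.8% for H3K9acS10ph (61 to 66.5, 1144 peaks) and 39.7% for H3K4me1 (35.3 to 44.3, 446 peaks). In these 446 the H3K4me1 midpoint thus lay more often on the opposite side. They were a minority of the 1469 H3K27ac peaks with exactly 1 H3K27acS28ph peak, as those with no H3K4me1 peak or with several were left out. The median distance between midpoints was 282 bp from H3K27acS28ph to H3K4me3, 364 bp to JIL-1, 398 bp to H3K9acS10ph and 917 bp to H3K4me1. The marks differ in width, with medians from 1871 bp (JIL-1) to 3252 bp (H3K9acS10ph) in these peaks, and the distances are a description.

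The share of H3K27ac peaks with H3K27acS28ph varied modestly between the large arms. It was 31.3% on 2L (281 of 897, 28.4 to 34.4), 37.4% on 3L, 38.9% on 2R, 40.2% on 3R and 40.9% on X (393 of 962, 37.8 to 44). The intervals of 3L, 2R, 3R and X overlapped one another, and that of 2L lay below all 4 (that of 3L was 34.5 to 40.3). On chromosome 4, a small chromosome rich in heterochromatin, it was 18.8% (12 of 64, 11.1 to 30). The median H3K27ac width was 2367 bp on 2L, 2055 bp on chromosome 4 and between 2463 and 2614 bp on the others.

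H3K27acS28ph peaks outside H3K27ac overlapped the other lists much less often than shared ones. H3K4me3, found at 79.6% of all H3K27acS28ph arm peaks, was present at 90.7% of the shared and at 28.6% of the 577 unshared ones (25.1 to 32.4). H3K4me1 was present at 82.5%, 95.8% and 21.5%, JIL-1 at 77.4%, 88.5% and 26.2%, and H3K9acS10ph at 84.2%, 94.9% and 35.5%. The differences were 62.1, 74.3, 62.3 and 59.3 points, all with intervals above 0. With windows of 1000 bp, which leave 1772 H3K27acS28ph peaks unshared, they were 27.7, 23.3, 25.7 and 37.9 points. None of the 4 marks was found at 291 of the 577 (50.4%, 46.4 to 54.5), compared with 13 of the 2646 shared peaks (0.491%) and with 89 of the 3254 H3K27ac-only peaks (2.74%). All 4 were found at 42 (7.28%).

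The peaks found for only one of the antibodies also differed from each other. H3K27ac-only peaks exceeded H3K27acS28ph-only peaks by 70.4 points for H3K4me1 (66.7 to 73.7), by 48 points for JIL-1 (44 to 51.8), by 33.6 points for H3K9acS10ph (29.3 to 37.7) and by 30.8 points for H3K4me3 (26.6 to 34.7). H3K27ac-only peaks were also the wider, with a median of 1972 bp against 1324 bp. With windows of 1000 bp the differences were 23.5, 7.92, 11.1 and -8.47 points (-11.2 to -5.66), so the order for H3K4me3 turned round. The windows also changed the groups, to 3804 H3K27ac-only and 1772 H3K27acS28ph-only peaks. Most of these 1772 overlapped H3K27ac at full width. Over all scaffolds the differences of H3K9acS10ph and H3K4me3 were 61.3 and 53.1 points. The 577 H3K27acS28ph-only peaks at full width lay a median of 10236 bp from the nearest H3K27ac peak (8745 to 12762). The 76 of them within 1000 bp had H3K4me1 at 64.5% and H3K4me3 at 48.7%, and the 501 farther away at 15% and 25.5%.

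A set of wide, high-scoring peaks stood out among the H3K27acS28ph-only peaks. Their median width of 1324 bp (1213 to 1395) was 148 bp below that of the shared peaks, a difference of 72.5 bp and not called in the upper 50% of the lists. With H3K27ac reduced to 3223 peaks it was 260 bp, and over all scaffolds 314 bp. At the upper end the order turned round, with 90th percentiles of 5366 bp for unshared and 2668 bp for shared peaks. Widths of 5000 bp or more occurred in 65 of the 577 unshared peaks (11.3%, 8.94 to 14.1) and in 28 of the 2646 shared ones (1.06%, 0.733 to 1.53), and widths from 7000 to 9000 bp in 44 and 5. The limit of 5000 bp was chosen after the widths were seen.

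These 65 wide peaks had a median width of 7823 bp (quartiles 6751 and 8050 bp) and a median score percentile of 90.6. None of the other 4 marks was found at 47 of them (72.3%), H3K4me3 at 1, JIL-1 at 4, H3K9acS10ph at 7 and H3K4me1 at 14. The 28 shared peaks of that width all overlapped H3K4me1, and 22 of them H3K4me3. Of the 38 unshared peaks in the highest 10% of scores, 33 were 5000 bp or wider. The 65 were spread over the large arms, with 12 on 2L, 13 on 2R, 15 on 3L, 14 on 3R and 11 on X, and none lay on chromosome 4. Repeat content and copy number at these places were not analysed here, which limits what their widths, scores and lack of other marks mean.

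**Figure D5:**
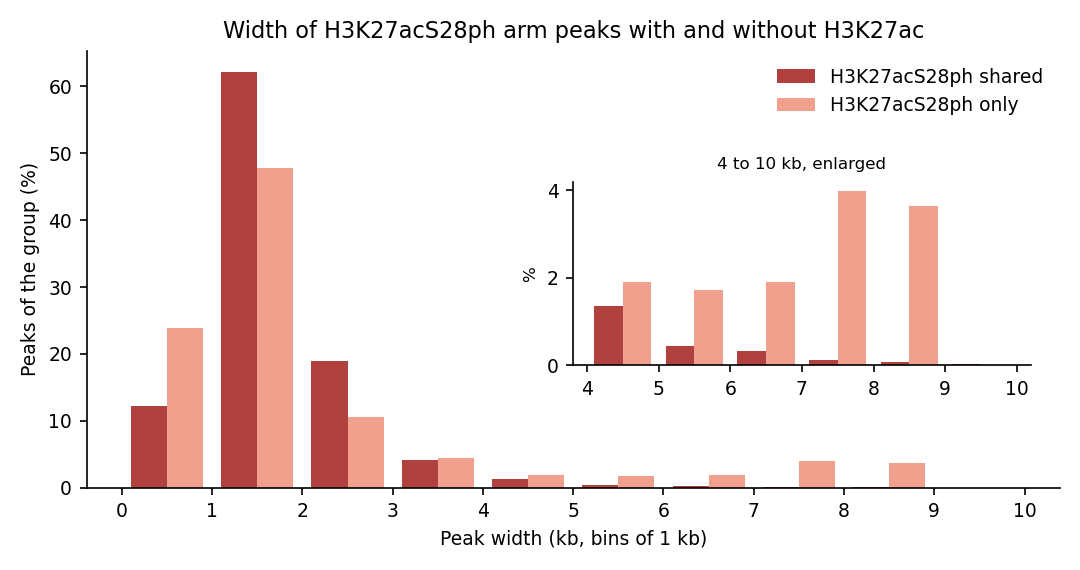
Widths of H3K27acS28ph arm peaks (kb, bins of 1 kb) against the share of each group (%), for 2646 shared and 577 unshared peaks; the inset enlarges 4 to 10 kb, and 1 shared peak of 10.3 kb is beyond the axis. Unshared peaks have a second rise between 7 and 9 kb (3.99% and 3.64% in its 2 bins), where shared peaks hold 0.113% and 0.0756%.

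Single regions illustrate the groups, with coordinates given 1-based on scaffolds named as in release 5 of the fly genome; the genes there were not analysed here. The H3K27ac peak with the most H3K27acS28ph peaks lay on 3L from 8667952 to 8703159 (35.2 kb) and held 12 of them, each 1007 to 2393 bp wide. All 12 overlapped H3K4me1, JIL-1 and H3K9acS10ph, but only 3 overlapped H3K4me3, which had 2 peaks there and covered 14.1% of its length. The peak on 3L from 4101098 to 4128990 held 7 H3K27acS28ph peaks, all of them over H3K4me3, which had 11 peaks. On 3R, the H3K27ac peaks from 24149668 to 24167133 and from 13519408 to 13533937 also held 7 each, of which 7 and 4 overlapped H3K4me3. The peak on 3R from 11170458 to 11193744 held 6, all over H3K4me3.

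The highest-scoring H3K27ac peak without H3K27acS28ph lay on 3R from 10631117 to 10633295 and overlapped H3K4me1 and H3K9acS10ph. The second, on 2L between 10245570 and 10247380, and the third, on 3R between 9227979 and 9229419, overlapped H3K4me3, H3K4me1 and JIL-1 and not H3K9acS10ph. The fourth, without H3K4me3, spanned 14237065 to 14240348 of 2R, and the fifth, with all 4 marks, spanned 4059035 to 4061283 of 3R. All 5 stood at or above the 99.9th percentile of the H3K27ac list.

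The 5 highest-scoring H3K27acS28ph peaks without H3K27ac were all between 8.05 and 8.64 kb wide. The first spanned 445174 to 453276 of X, and the others lay on 3L, from 9069768 to 9078051, from 4327913 to 4336554, from 9526486 to 9534927 and from 11557771 to 11565825. Only the fourth overlapped another list, H3K4me1. The widest H3K27acS28ph peak that did overlap H3K27ac spanned 476095 to 486392 of 2L (10.3 kb), with H3K4me1 alone of the other 4 marks. The next in width spanned 926295 to 935535 of X, with all but H3K9acS10ph, and 4633506 to 4641857 of 3R, with H3K4me1 and JIL-1.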

How the data were processed

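Kc167 chromatin was fixed, sonicated and immunoprecipitated with 1 of 6 antibodies, per the labels' protocols. The submitters' processing notes name Bowtie 0.12.5 for these reads. The authors deposited 1 peak list per library, not pooled. Peaks are named after the caller MACS, whose version and settings, with any control and the assembly, were not given in the sources used here. Each score, as deposited, was taken as -10 times log10 of the peak p-value, because the lowest scores lay at 50.0 to 50.4, and was used only to rank peaks within a list. Start and end positions are another deposited kind of value, in bp.

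Groups were formed by an overlap of at least 1 bp. Shares have Wilson intervals, differences of shares Newcombe intervals and medians order statistic intervals (all 95%). Medians of widths or ranks were called different when their intervals did not overlap, and coverage within peaks when the share of unequal peaks that were higher excluded 50%. Percentile ranks give ties their mean rank. The named regions follow a rule: the 5 H3K27ac peaks with the most H3K27acS28ph peaks, the 5 highest-scoring unshared peaks of each list, the 3 widest shared H3K27acS28ph peaks (ties by width) and the pairs at the overlap limit. Peaks, groups and comparisons were chosen with earlier results of these data known. The comparisons of sides, mirror images and wide peaks were added after the data were seen. No sample was left out. Gene names and sequences were not used, since the gene table at hand describes release 6 of the genome. Python 3.11.15, numpy 2.4.6, scipy 1.17.1, pandas 2.3.3 and matplotlib 3.10.9 were used, and the procedures were tested on simulated data.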

Additional observations from a re-analysis of the deposited data

How the results depend on the processing

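No paired analysis was possible because each antibody has 1 library, and no replicate could be left out. Of the 24 results with a call rule, 150 alternative values were computed, and 142 kept their direction and call. The exceptions were these. With each list reduced to its higher-scoring 50%, the H3K27ac rank difference was 0 and the H3K27acS28ph width difference 72.5 bp. With equally long lists the H3K27ac rank difference was 0 and the H3K4me1 difference at H3K27ac peaks 0.788 points, and in the middle 50% of H3K27ac widths the latter was 0.752 points. With 1000 bp windows the H3K4me1 difference at H3K27ac peaks was -1.04 points and the H3K4me3 difference between the unshared peaks of both lists -8.47 points. Over all scaffolds the H3K27acS28ph rank difference was 1.96 points. The rank differences of 0 come from tied scores. Some settings changed the groups too. Windows left 1772 H3K27acS28ph peaks unshared, against 577 at full width. All scaffolds added 2411 H3K27acS28ph peaks, of which 38 overlapped H3K27ac. The cause of the other exceptions was not tested.

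The share of H3K27ac peaks with H3K27acS28ph was 39.7% in the upper 50%, 27.2% with windows and 56.9% with equal lists. The share of H3K27acS28ph peaks with H3K27ac was 80.7% when 50% of the shorter peak had to overlap, 79% in the upper 50%, 45% with windows, 78% with equal lists, 47.6% over all scaffolds and 83.6% without H3K27acS28ph peaks of 5000 bp or more, a setting added after the data were seen, as were those without chromosome 4 and all settings for sides and coverage within peaks. Contained pairs made up 87.4%, 87.6% and 86.9% with 50% overlap, the upper 50% and equal lists, and 80.7% with exactly 1 H3K27acS28ph peak, where the median distance from the centre was 49.5%. Windows of equal width give no width, position or coverage. The unknown read depth limits what an absent peak can mean: a mark below the caller's threshold counts as absent.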

Other observations

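Off the main arms few H3K27acS28ph peaks overlapped H3K27ac, whereas many of the fewer H3K27ac peaks overlapped H3K27acS28ph. Of the 2411 H3K27acS28ph peaks on the unplaced and heterochromatin scaffolds, 38 overlapped H3K27ac (1.58%, 95% Wilson interval 1.15 to 2.16), and 37 of these were among the 131 on the assembled heterochromatin scaffolds (28.2%, 21.2 to 36.5). On U it was 1 of 262, and on Uextra 0 of 2018, with a Wilson upper limit of 0.19% (3 counts would be 0.149%). Of the 81 H3K27ac peaks on these scaffolds, 36 overlapped H3K27acS28ph (44.4%, 34.1 to 55.3).

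The 12 H3K27ac arm peaks that carried H3K27acS28ph and none of the other 4 marks had a median width of 1930 bp, 5 of them scored at 3100 or above, and their H3K27acS28ph peaks had a median width of 1352 bp and a median score percentile of 44.6. The 172 H3K27ac peaks with more H3K27acS28ph than H3K4me3 peaks included 72 without H3K4me3, and their median width was 5072 bp, against 3750 bp for the other 1796 shared peaks. Among the 577 H3K27acS28ph-only peaks, the commonest combinations of marks after none were all 4 (42 peaks), H3K4me3 with H3K9acS10ph (39) and these 2 with JIL-1 (39).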
